A study of Mus musculus with 36 samples.

Results

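The carbonic anhydrases Car1, Car2, Car3, Car4, Car8 and Car14 were followed along the mouse intestine in microarray measurements of the duodenum, jejunum, ileum and colon. The members were all probe sets annotated to these 6 gene symbols on array sets A, B and C, giving 10 of the 36701 probe sets tested and 6 of the 15964 genes they name. Array set A held 7 of them, B held 2 (1 each of Car3 and Car14) and C held 1 (of Car8). The tissue came from males of the outbred stock Hsd:ICR(CD-1), aged 8 weeks, that ate a standard chow freely. The labels name no treatment or genetic change, and the groups differ by segment. Each segment was represented by 3 pools of 10 mice, and total RNA of the whole segment was used. The duodenum was the 2 to 3 cm that follow the stomach, the jejunum was cut from the mid-portion, the ileum was the stretch that ends at the caecum, and the colon was left undivided. Each of the 12 pools was measured on all 3 array sets (36 arrays).

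Carbonic anhydrases convert carbon dioxide and water to bicarbonate and a proton, and back. In the gut these ions feed the exchangers with which the epithelium secretes bicarbonate and takes up sodium and chloride. The family includes soluble enzymes of the cytosol (Car1, Car2 and Car3), enzymes that face the outside of the cell on a lipid anchor (Car4) or a membrane-spanning segment (Car14), and a related cytosolic protein that lacks the enzyme activity (Car8).

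Of the 6 genes, 5 were highest in the colon, and they reached it by different routes. Car1 was bright in the colon and lay near or below the middle of the arrays everywhere else. Car2 had high levels at both ends, the duodenum and the colon, and a trough between them. Car4 was higher in the colon than in the ileum on both of its probe sets, and rose from the duodenum to the jejunum on the brighter of them. Car3 and Car8 had moderate colon levels over dim small-intestinal values, each on 1 of its 2 probe sets, and no difference of Car14 passed the test.

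Promoter sequences are shown for Car4 and Car14, the members present in the RefSeq promoter table used here (2 of the 6 matched, build GRCm38.p6). They are the pair of membrane-bound enzymes, and they contrast a gene with called differences between segments with a gene that had none. Each sequence runs 5′ to 3′ on the gene's strand over 300 bases, from 250 before the annotated start to 50 from it onwards. Car4 lies at chr11:84957504-84957803 on the + strand and Car14 at chr3:95904636-95904935 on the - strand. Capitals mark matches to the motifs searched.
Car4: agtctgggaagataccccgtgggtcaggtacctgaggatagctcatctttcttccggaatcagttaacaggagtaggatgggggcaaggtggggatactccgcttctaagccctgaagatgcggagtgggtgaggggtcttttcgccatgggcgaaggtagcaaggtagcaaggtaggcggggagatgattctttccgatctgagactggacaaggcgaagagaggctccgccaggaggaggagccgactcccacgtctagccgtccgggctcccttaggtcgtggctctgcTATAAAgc
Car14: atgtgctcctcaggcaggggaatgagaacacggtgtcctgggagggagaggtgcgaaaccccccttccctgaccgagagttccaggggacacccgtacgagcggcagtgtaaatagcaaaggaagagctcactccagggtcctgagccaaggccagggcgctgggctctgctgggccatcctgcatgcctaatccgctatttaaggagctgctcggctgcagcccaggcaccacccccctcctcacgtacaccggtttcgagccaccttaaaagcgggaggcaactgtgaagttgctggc
The motifs were searched on both strands: TTTAT, the core of the site of the CDX homeodomain factors of gut epithelium, GATAAG for GATA factors, CAAAGTCCA for HNF4, and TATAAA for the TATA box. TATAAA was found at bases 293 to 298 of the Car4 window, which is 42 bases past the annotated start. TTTAT was found at bases 294 to 298 on the opposite strand, inside that same TATAAA match, so the pair is not independent. None of the 4 motifs was found in the Car14 window. Of the 32851 promoters of the table, 40% held TTTAT, 13.6% held TATAAA, 7.44% held GATAAG and 0.475% held CAAAGTCCA. A match describes letters in this window and no more.

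Values are intensities on the linear scale as deposited, and differences are given as log2 of the intensity plus an offset of 16. They were tested with limma's moderated test, 2-sided, with Benjamini-Hochberg adjustment over all 36701 probe sets, and a difference was called at an adjusted p below 0.05. Errors are SD over the 3 pools of a segment (n = 3 throughout), and a p-value reflects how far the pools of a segment scatter. Probe sets differ in how brightly they report a transcript, so a level is compared between segments for the same probe set and never between genes. Array medians lay between 48.7 and 75.2 for set A, between 85.7 and 110.2 for B and between 85.5 and 104.5 for C, and a value below the median of its array is not shown to be above background. Precision is limited by the number of arrays.

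The labelled segments matched their defining transcripts in part. Apoa1, an apolipoprotein of small-intestinal enterocytes, averaged 26186, 23395 and 23513 in the duodenum, jejunum and ileum and 26.9 in the colon. The duodenum pools also carried transcripts of the exocrine pancreas and high levels of some gastric gland markers. The summed level of 8 exocrine pancreas markers was 106536 to 110097 there against 1463 to 2149 in the jejunum. Tff2, from the list of gastric gland markers, averaged 18749 against 14.9. Whether its RNA came from stomach or from the duodenum itself was not tested. The 18S ribosomal RNA control was low in jejunum pools 2 and 3 and ileum pools 1 and 3 (4 pools) and high in the other 8. The ratio of 3′ to 5′ actin signal, a sign of RNA quality, was 1.41 to 1.84 in the duodenum, 1.28 to 1.55 in the jejunum, 1.14 to 1.20 in the ileum and 1.30 to 1.43 in the colon on set A. The part of either in the results was not tested, beyond the values given with the 18S class as a term and among the 8 pools with high 18S signal. Among those 8 the jejunum and the ileum are 1 pool each, assumed to vary like the others.

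For any difference among the 4 segments, 6 of the 10 probe sets, from 5 of the 6 genes, were called by limma's moderated F test, against 8.82% of all probe sets. The members were chosen with earlier results of these data known. An excess over the shares of all probe sets, here and below, is therefore a description and not a test. The 6 called were the probe sets of Car1 and Car2, both of Car4, and those of Car3 and Car8 on array set A. The same 6 were higher in the colon than in the ileum (background 3.28%), than in the jejunum (9.19%) and than in the duodenum (5.99%), and in each of these comparisons the pools of these 6 did not overlap. Pools without overlap were found for 18.8%, 25.1% and 22.8% of all probe sets in the same comparisons. These 3 comparisons share the colon pools and are not independent of each other. No probe set of the 10 was called lower in the colon. The median log2 difference over the 10 was 1.35 for colon minus ileum, 0.90 for colon minus jejunum and 1.29 for colon minus duodenum, beside 0.02, 0.07 and 0.03 over all probe sets.

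Within the small intestine fewer were called. From duodenum to jejunum 2 of the 10 passed, Car4 higher and Car2 lower (background 0.924%), and the same direction held for these 2 between duodenum and ileum (1.83%). Between jejunum and ileum 1 passed, Car2, which was lower in the ileum (2.78%). The median log2 differences over the 10 were -0.43, -0.44 and -0.27 for jejunum minus duodenum, ileum minus duodenum and ileum minus jejunum, beside -0.06, 0.02 and 0.06 over all probe sets. Pools did not overlap for 3, 5 and 4 of the 10 probe sets in these comparisons, beside 14.1%, 15% and 16.5% of all probe sets.

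**Figure D1:**
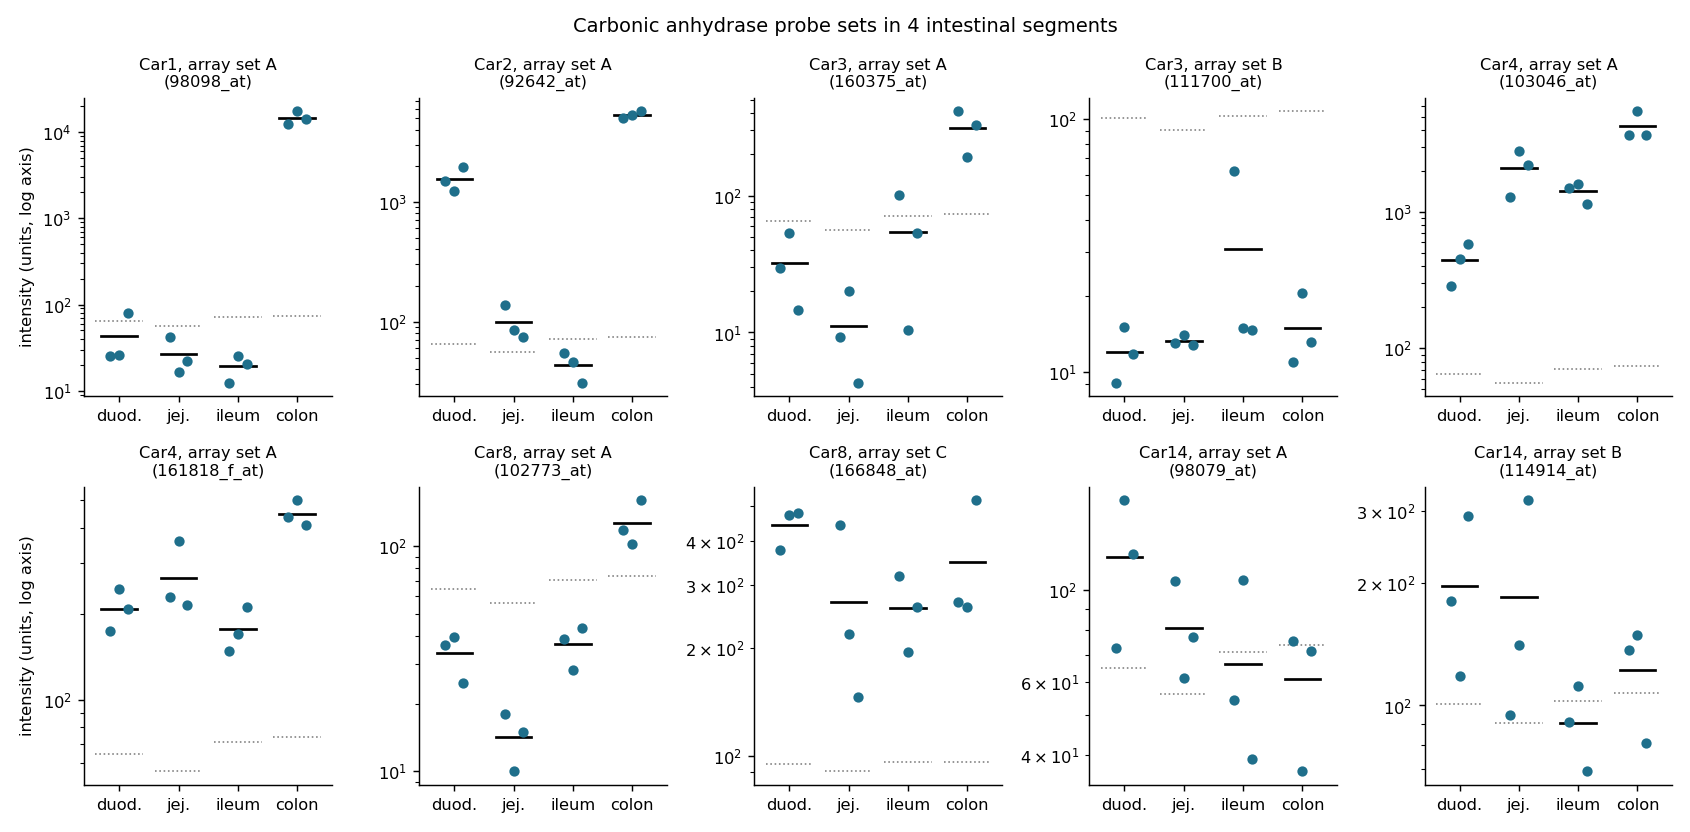
Intensity of the 10 carbonic anhydrase probe sets in each pool (points, 3 per segment, logarithmic axis in intensity units), with the segment mean (black bar) and the mean of the array medians (dotted line). In the panels of Car1, Car2, both Car4 probe sets and the set A probe sets of Car3 and Car8, every colon pool lies above every pool of the other segments.

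Car1 is a soluble enzyme of moderate activity, best known from red blood cells and from the surface epithelium of the colon. Its probe set on array set A (98098_at) read 12551.7, 17370.4 and 14028.7 in colon pools 1 to 3. In the small intestine it read 25.3, 26.2 and 79.6 in the duodenum, 41.6, 16.4 and 22.1 in the jejunum and 12.4, 25.1 and 20.3 in the ileum. The colon pools stood apart from all 9 others, and only duodenum pool 3 of those 9 lay above its array's median.

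Colon minus ileum was 8.70 for Car1 (SE 0.320, adjusted p = 1.26e-10). Against jejunum and duodenum the colon was higher by 8.45 and 8.04 (adjusted p = 1.49e-10 and 2.26e-10). The small-intestinal values are at or near background, so the size of these differences depends on the offset, and colon minus ileum was 9.54 with an offset of 1 and 7.45 with 64. The order of the means was colon 14650 ± 2469, duodenum 43.7 ± 31.1, jejunum 26.7 ± 13.2 and ileum 19.3 ± 6.41. No difference among the last 3 was called, with log2 differences of -0.41 for jejunum minus duodenum, -0.25 for ileum minus jejunum and -0.66 for ileum minus duodenum (adjusted p = 0.733, 0.842 and 0.468). The 95% interval of ileum minus duodenum was -1.34 to 0.02, and there the pools did not overlap, the highest ileum value being 25.1 and the lowest duodenum value 25.3. In bulk tissue, fewer cells of a type and less RNA per cell cannot be told apart, here and in every comparison that follows.

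Red blood cells are the other place where Car1 is abundant. None of 6 red cell markers was called by limma in any of the 6 comparisons, and their summed level was 1156 to 1326 in the colon, 924 to 1234 in the duodenum, 705 to 1341 in the jejunum and 732 to 1070 in the ileum. The colon sums were thus above the ileum sums in every pool and overlapped with those of the duodenum and jejunum. Hba-a1, a globin gene, averaged 781 ± 88.5 in the colon and 548 ± 131 in the ileum (log2 difference 0.52, adjusted p = 0.380). The part of red cell RNA in the Car1 result was not tested. The summed level of 9 epithelial markers was 41035 to 49166 in the colon, 50130 to 57749 in the ileum, 41656 to 48274 in the jejunum and 37448 to 40657 in the duodenum. It was highest in the ileum pools and lowest in the duodenum pools, and overlapped between colon and jejunum. Of these 9, the brush border gene Vil1 was lower in the colon than in the ileum and 0 were higher (adjusted p = 1.57e-05 for Vil1), beside 3.28% of all probe sets called.

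Car2 is the fast soluble enzyme of the family, used by acid- and bicarbonate-secreting cells such as gastric parietal cells, pancreatic duct cells and colonocytes. The probe set 92642_at read 1480.9, 1219.0 and 1954.3 in duodenum pools 1 to 3. It then read 136.4, 85.8 and 74.0 in the jejunum, 54.5, 45.8 and 30.9 in the ileum, and 5006.8, 5300.5 and 5673.5 in the colon. No 2 segments overlapped, which holds for no other member. The 3 ileum pools were all below their array medians, while the 3 jejunum pools were all above.

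From duodenum to jejunum Car2 fell by 3.78 on the log2 scale (SE 0.226, adjusted p = 1.04e-07), a ratio of means of 15.7. From ileum to colon it rose by 6.50 (adjusted p = 6.53e-11), and by 6.93 and 5.65 with offsets of 1 and 64, so its size depends on the offset added before the log. The colon lay above the duodenum by 1.79 (adjusted p = 0.0001), a ratio of 3.43. The remaining differences were -4.71 for ileum minus duodenum (adjusted p = 7.43e-09, and -5.13 and -3.89 with those offsets) and 5.58 for colon minus jejunum (adjusted p = 3.00e-10). The order of the means was thus colon 5327 ± 334, duodenum 1551 ± 373, jejunum 98.7 ± 33.1 and ileum 43.7 ± 11.9.

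The last step of that order is the weak one. Ileum minus jejunum was -0.92 (SE 0.226, adjusted p = 0.0407). The call was lost when any 1 of jejunum pools 1 and 2, ileum pools 1, 2 and 3, colon pools 1, 2 and 3 or duodenum pool 1 was left out, and the adjusted p over these and the other alternatives ran from 0.00863 to 0.345. With an offset of 64 the difference was -0.58 (adjusted p = 0.131).

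The high duodenal value of Car2 coincided with transcripts of the exocrine pancreas and with part of a list of gastric gland markers. All 8 exocrine pancreas markers were lower in the jejunum than in the duodenum, and in the ileum and colon their summed level was 1297 to 2073 and 636 to 2274. Of 9 gastric gland markers, 3 were lower in the jejunum than in the duodenum (Tff2, Gkn2 and Gkn3). The summed level of the 9 was 50136 to 67565 in the duodenum, 742 to 943 in the jejunum, 472 to 596 in the ileum and 595 to 768 in the colon. Over all probe sets 0.924% were called for jejunum minus duodenum. The subunits of the parietal cell proton pump were not among these 3 gastric markers, nor were Gkn1, Muc5ac, Cblif and Pgc. Atp4b averaged 33.9 ± 13.5 in the duodenum and 10.5 ± 2.57 in the jejunum (log2 difference -0.88, adjusted p = 0.156), and Atp4a averaged 175 ± 69.8 and 149 ± 71.8. The part of pancreatic or gastric RNA in the duodenal Car2 level was not tested. It was also not tested whether the 3 gastric markers came from stomach or from the duodenum itself. In the colon, where Car2 was highest, the summed level of both lists overlapped with that in the jejunum.

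Car3 is a soluble enzyme of low activity, best known from fat, liver and slow skeletal muscle. Its set A probe set (160375_at) read 412.0, 192.6 and 325.8 in the colon. It read 29.6, 53.1 and 14.5 in the duodenum, 9.3, 20.0 and 4.3 in the jejunum and 100.4, 10.4 and 53.2 in the ileum. The colon pools were above all others, and of the 9 small-intestinal pools only ileum pool 1 exceeded its array's median.

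Colon minus jejunum was 3.56 for Car3 (SE 0.497, adjusted p = 0.000199), and 2.27 with an offset of 64. Colon minus duodenum was 2.77 (adjusted p = 0.00244) and colon minus ileum 2.39 (adjusted p = 0.0123). The ileum difference lost its call without colon pool 1 (2.16, adjusted p = 0.0712) or colon pool 3 (2.32, adjusted p = 0.0560). Among the small-intestinal segments no Car3 difference was called. Ileum minus jejunum was 1.17 (95% interval 0.11 to 2.24, adjusted p = 0.295), and it passed the threshold only without ileum pool 2 (1.76, adjusted p = 0.0468). The means ran colon 310 ± 111, ileum 54.7 ± 45.0, duodenum 32.4 ± 19.5 and jejunum 11.2 ± 8.02.

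The other Car3 probe set, 111700_at on array set B, did not show this pattern. It lay below the array median on all 12 arrays, with values from 9.1 to 62.4, and the highest of them was ileum pool 1. Colon minus ileum was -0.46 there (95% interval -1.19 to 0.28, adjusted p = 0.711), and no difference was called. The colon difference of Car3 therefore rests on 1 probe set, and why the other stayed dim was not tested.

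Markers of fat moved with Car3 in part. Of 7 adipocyte markers, 3 were higher in the colon than in the ileum and 0 lower. The fat hormone Adipoq averaged 444 ± 82.0 in the colon against 74.7 ± 42.8 in the ileum (log2 difference 2.43, adjusted p = 0.000543), Retn 76.6 ± 20.6 against 10.3 ± 3.57, and the lipase Lpl 112 ± 5.41 against 23.4 ± 19.6. Retn read 53.3 to 92.4 in the colon, where array medians were 73.15 to 75, so it is not shown to be above background in every colon pool. In the small intestine Adipoq averaged 38.5 and 29.2 in duodenum and jejunum. Against the jejunum, 4 of the 7 were higher in the colon and 2 lower (Pck1 and Cidec, which enterocytes also express). The summed level of the 7 was 1372 to 1522 in the colon, 861 to 1002 in the ileum, 1368 to 1828 in the jejunum and 884 to 1183 in the duodenum. Without Pck1 and Cidec, which were set aside after their values were seen, the sum of the other 5 was 911 to 995 in the colon, 248 to 397 in the ileum, 208 to 312 in the jejunum and 227 to 432 in the duodenum, and the colon pools stood above all others. None of 10 skeletal muscle markers was called by the F test, and their summed level overlapped among segments (963 to 1216 in the colon, 758 to 1373 in the ileum, 756 to 1238 in the jejunum, 771 to 1035 in the duodenum). Between single segments limma called 1 of the 10, Myh1, lower in the colon than in the jejunum. Its means there were 2.17 and 13.5 (log2 difference -0.68, adjusted p = 0.0180). Both lie below every array median of set A (48.7 to 75.2), so Myh1 is not shown to be above background. Smooth muscle markers were higher in the colon than in the ileum in 6 of 8, than in the jejunum in 7 of 8 and than in the duodenum in 8 of 8. Over all probe sets 3.28%, 9.19% and 5.99% were called in these comparisons. Their summed level was 25204 to 29194 in the colon, 8936 to 10819 in the ileum, 5135 to 7953 in the jejunum and 4757 to 5635 in the duodenum. That sum is of the 8 smooth muscle markers. The part of fat or muscle RNA in the Car3 result was not tested.

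**Figure D2:**
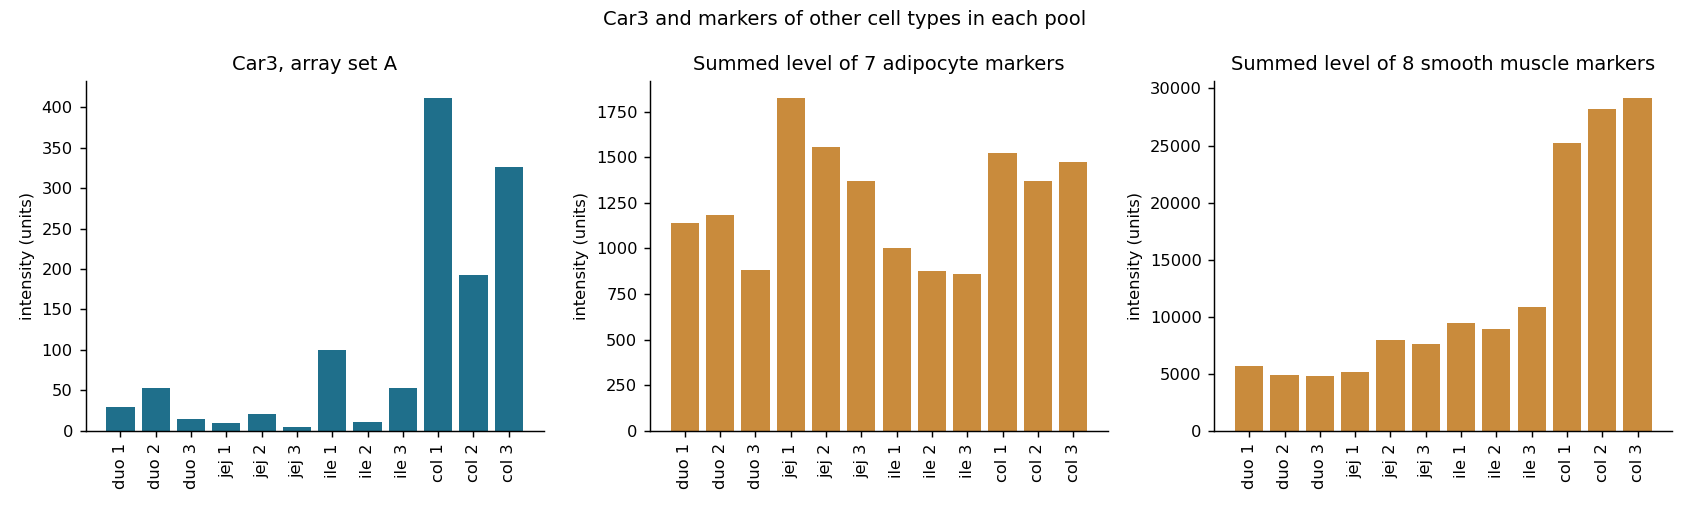
Intensity of the set A probe set of Car3 in each of the 12 pools (left), and the summed intensity of 7 adipocyte markers (middle) and 8 smooth muscle markers (right) in the same pools. The 3 colon pools are highest for Car3 (192.6 to 412.0) and for smooth muscle (25204 to 29194), while the sum of all 7 adipocyte markers, of which Pck1 is the brightest in the jejunum, overlaps between jejunum (1368 to 1828) and colon (1372 to 1522). Pck1 and Cidec, both lower in the colon than in the jejunum, were set aside after their values were seen. Without them the colon sum (911 to 995) is above that of the jejunum (208 to 312), which follows in part from that choice.

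Car4 is held on the outer face of the cell membrane by a lipid anchor, where it makes bicarbonate available to exchangers at the apical surface. The probe set 103046_at read 285.0, 455.4 and 585.8 in the duodenum and 1284.0, 2781.2 and 2220.8 in the jejunum. It read 1496.4, 1599.6 and 1145.3 in the ileum and 3676.8, 5450.0 and 3636.4 in the colon. The duodenum was below and the colon above every other pool, and the jejunum and ileum overlapped.

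Jejunum minus duodenum was 2.19 for Car4 (SE 0.287, adjusted p = 0.000745), the opposite direction to Car2 over the same step. Within the jejunum, the pools with low 18S signal, 2 and 3, were also the higher for Car4. With the 18S class as a term the difference was 1.97 (adjusted p = 0.0170), and among the 8 pools with high 18S signal it was 1.56 and not called (adjusted p = 0.193). Ileum minus duodenum was 1.68 (adjusted p = 0.00423), and 1.47 with the 18S term (adjusted p = 0.0553). Ileum minus jejunum was -0.51 (95% interval -1.12 to 0.11, adjusted p = 0.499).

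Colon minus duodenum was 3.25 for Car4 (adjusted p = 2.23e-06), and colon minus ileum was 1.57 (adjusted p = 0.00462), which among the 8 high-18S pools was 1.38 (adjusted p = 0.0767). Colon minus jejunum was smaller, at 1.06 (adjusted p = 0.0289). Its call was lost without any 1 of jejunum pools 1 and 3 and colon pools 1, 2 and 3, and under median centring of the arrays it was 0.74 (adjusted p = 0.205). Centring moved the median of all probe sets for this comparison from 0.07 to -0.12. The means ran colon 4254 ± 1036, jejunum 2095 ± 756, ileum 1414 ± 238 and duodenum 442 ± 151.

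The probe set 161818_f_at of Car4, also on set A, showed the colon difference and not the jejunal step. The _f in its name is the maker's mark for a set that can also detect related sequences. It ranged over 174.2 to 243.3 in the duodenum, 215.1 to 358.5 in the jejunum, 148.3 to 211.8 in the ileum and 409.5 to 499.9 in the colon. Colon minus ileum was 1.28 (adjusted p = 0.00268) and colon minus duodenum 1.06 (adjusted p = 0.0077). Jejunum minus duodenum was 0.31 (95% interval -0.16 to 0.78, adjusted p = 0.686), and its upper bound lay below the lower bound of the brighter set, 1.58. Colon minus jejunum was 0.74 (adjusted p = 0.0468), a call that was kept only without jejunum pool 2 or ileum pool 2 among the 12 fits that leave out 1 pool, and that was lost in 7 of 10 other alternatives. Ileum minus duodenum differed in sign between these probe sets, at 1.68 called and -0.22 not called (adjusted p = 0.803).

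Endothelial cells carry Car4 in other organs. None of 7 endothelial markers was called by limma in any comparison. Their summed level was 305 to 350 in the duodenum, 382 to 503 in the jejunum, 355 to 457 in the ileum and 309 to 437 in the colon. The duodenum sums thus lay below the jejunum and ileum sums, as the duodenum pools did for Car4 on 103046_at. Apart from Pecam1, no endothelial marker had a segment mean above 75.2, the highest array median of set A. Most of these sums are therefore made of values not shown to be above background. The colon sums overlapped with the duodenum sums, while Car4 was highest in the colon. Pecam1 averaged 52.6, 114, 73.0 and 76.5 from duodenum to colon and was higher in the jejunum pools than in all others. Its jejunum minus duodenum was 0.97 (limma, adjusted p = 0.181). Vwf, Tie1 and Cdh5 were also higher in the jejunum than in the duodenum, and Emcn, Kdr and Tek were lower (-0.11, -0.04 and -0.42). The part of endothelial RNA in the Car4 result was not tested. Small-intestinal enterocyte markers moved against Car4 at the last step, with 6 of 8 lower and 0 higher in the colon than in the ileum, and a summed level of 4875 to 5355 in the colon and 41341 to 62777 in the ileum. The aminopeptidase Anpep, 1 of these 8, rose with Car4 from duodenum to jejunum (3974 ± 391 to 12767 ± 721, log2 difference 1.68, adjusted p = 4.59e-05) and then was 189 ± 25.7 in the colon. No other of the 8 was called from duodenum to jejunum, and their median log2 difference was 0.04. Apoa1, Fabp1, Fabp2 and Sis were lower in the jejunum, at -0.15, -0.15, -0.37 and -0.08. Of 7 goblet cell markers, 3 were higher in the colon than in the ileum (Muc2, Agr2 and Spdef) and 1 lower (Tff3). Beside the counts of both lists, 3.28% of all probe sets were called for colon minus ileum and 0.924% for jejunum minus duodenum.

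Car14 is the other membrane-bound member, a membrane-spanning enzyme with its active part outside the cell. Its set A probe set (98079_at) read 72.6, 164.9 and 122.6 in the duodenum, 105.1, 61.3 and 77.3 in the jejunum, 54.4, 105.8 and 39.3 in the ileum and 75.3, 36.6 and 71.3 in the colon. Every pair of segments overlapped. The largest difference was colon minus duodenum at -0.80 (95% interval -1.60 to -0.004, adjusted p = 0.296), and it was not called. Means ran duodenum 120 ± 46.2, jejunum 81.2 ± 22.2, ileum 66.5 ± 34.9 and colon 61.1 ± 21.3. Colon minus ileum was -0.06, with an interval of -0.86 to 0.74.

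On array set B the Car14 probe set 114914_at read 180.3, 117.9 and 291.2 in the duodenum, 94.5, 140.5 and 319.2 in the jejunum, 91.0, 111.5 and 68.9 in the ileum and 136.9, 148.7 and 80.8 in the colon. Here only ileum and duodenum did not overlap (log2 difference -0.93, 95% interval -1.87 to -0.0006, adjusted p = 0.442). The duodenum had the highest mean on both probe sets, and limma called no difference on either. These intervals leave room for changes of more than 1 log2 unit between duodenum and ileum, so equal levels are not shown.

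Car8 keeps the fold of the family without the enzyme activity, and is best known as a partner of the inositol trisphosphate receptor in cerebellar neurons. On set A, 102773_at read 118.1, 102.0 and 160.3 in the colon, 36.4, 39.5 and 24.8 in the duodenum, 17.9, 10.0 and 14.9 in the jejunum and 38.7, 28.1 and 43.3 in the ileum. The colon pools were above, and all 9 small-intestinal pools below, their array medians.

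Colon minus jejunum was 2.23 for Car8 (SE 0.301, adjusted p = 0.000146), colon minus duodenum 1.52 (adjusted p = 0.00528) and colon minus ileum 1.43 (adjusted p = 0.0133). With an offset of 64 they were 1.28, 0.96 and 0.91, all called. The ileum difference was not called without ileum pool 2 (1.31, adjusted p = 0.0539), without colon pool 3 (1.27, adjusted p = 0.0832) or among the 8 high-18S pools (1.67, adjusted p = 0.0809). Jejunum pools were the lowest and did not overlap with the duodenum or the ileum, but neither difference passed, at -0.71 for jejunum minus duodenum (adjusted p = 0.384) and 0.80 for ileum minus jejunum (adjusted p = 0.220). Means ran colon 127 ± 30.1, ileum 36.7 ± 7.79, duodenum 33.6 ± 7.75 and jejunum 14.3 ± 3.99.

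The Car8 probe set on array set C (166848_at) was brighter relative to its arrays and did not show a colon excess. It read 377.0, 471.5 and 477.6 in the duodenum, 441.9, 219.5 and 145.9 in the jejunum, 318.7, 195.7 and 260.8 in the ileum and 269.2, 260.2 and 519.6 in the colon. Colon minus ileum was 0.37 (95% interval -0.49 to 1.23, adjusted p = 0.838), and colon minus duodenum was -0.39 (-1.25 to 0.47, adjusted p = 0.725), against 1.52 on set A with an interval of 0.88 to 2.16. The set C array of duodenum pool 3 carries jejunum in its source name and was kept as duodenum by its title. On set C the pancreas marker Cpa1 read at least 13113 in every duodenum array and at most 41.9 in the jejunum arrays. The array of duodenum pool 3 thus reads as duodenum. Without that pool colon minus duodenum was -0.33 (adjusted p = 0.838).

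Enteric neurons were examined beside Car8. Of 9 markers of enteric neurons and glia, 2 were higher in the colon than in the ileum and 0 lower: the synaptic gene Snap25 (51.4 ± 10.8 against 6.83 ± 3.20, log2 difference 1.56, adjusted p = 0.000401) and the glial gene Gfap (83.3 ± 19.8 against 21.9 ± 9.97, 1.40, adjusted p = 0.0472). Snap25 read 43.8 to 63.8 in the colon, below the array medians there (73.15 to 75), so it is not shown to be above background. Gfap was not called by the F test (adjusted p = 0.0675). Against the jejunum 3 of 9 were higher in the colon. Over all probe sets 3.28% were called for colon minus ileum and 9.19% for colon minus jejunum. The summed level of the 9 was 1557 to 1672 in the colon, 877 to 1186 in the ileum, 1123 to 1416 in the jejunum and 1309 to 1527 in the duodenum. The smooth muscle markers given beside Car3 were also highest in the colon. The part of nerve or muscle RNA in the Car8 result was not tested.

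**Figure D3:**
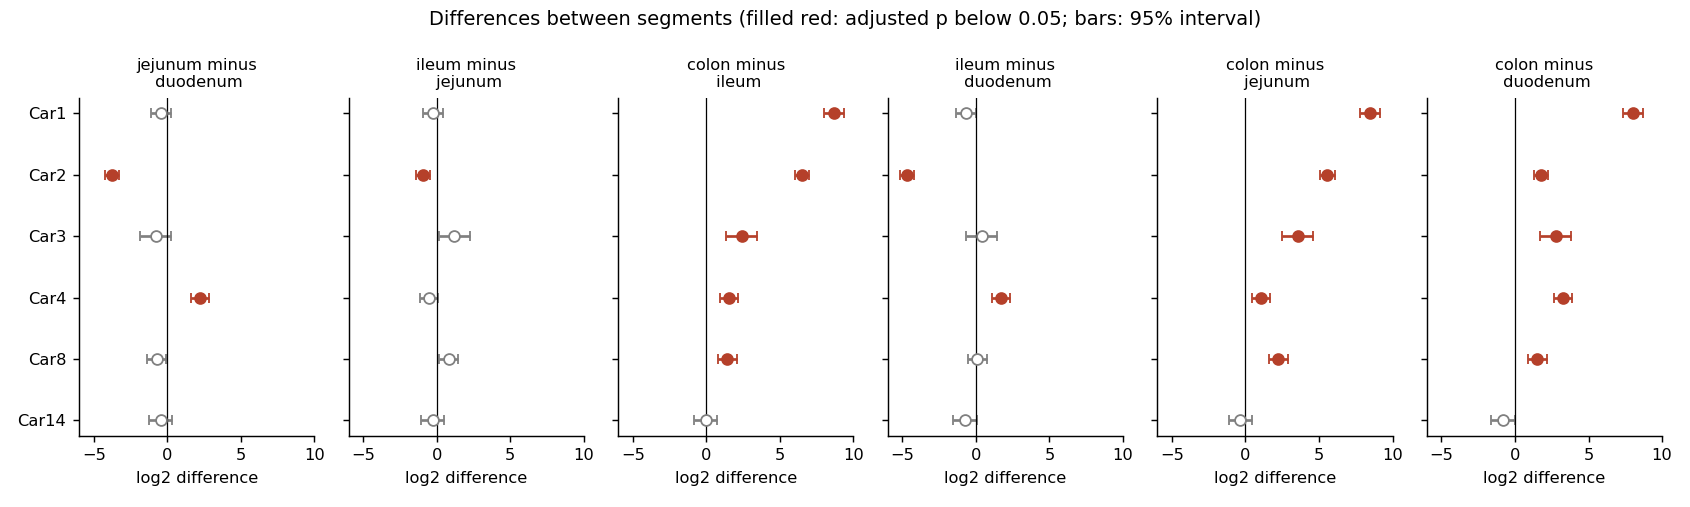
Log2 differences between segments for the brightest set A probe set of each member, with the 95% interval as bars, in 6 comparisons (filled red points: adjusted p below 0.05). Car1, Car2, Car3, Car4 and Car8 lie to the right of 0 in all 3 colon comparisons, while Car2 and Car4 point in opposite directions for jejunum minus duodenum (-3.78 and 2.19).

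Car1, Car3 and Car2 are neighbours in that order in the RefSeq annotation of GRCm38.p6, with Car13 on the other side of Car1 and no other protein-coding gene between them. Along this run, in the order Car1, Car3 on set A and Car2, colon minus duodenum was 8.04, 2.77 and 1.79. In the same order colon minus jejunum was 8.45, 3.56 and 5.58, and colon minus ileum was 8.70, 2.39 and 6.50. The set B probe set of Car3 had 0.14 for colon minus duodenum, not called. Car1 was at or near background outside the colon, so these sizes are not ranked between genes. Car13, a cytosolic enzyme, was not called in any comparison by limma and had means of 94.0 ± 20.2, 28.9 ± 34.5, 65.6 ± 11.5 and 21.6 ± 16.2 from duodenum to colon (colon minus duodenum -1.61, adjusted p = 0.0735). Car4, Car8 and Car14 have no other carbonic anhydrase as next protein-coding gene.

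Each member was also matched with the genes of array set A whose log2 values followed it most closely over the 12 arrays, among 2388 probe sets that varied by at least 1 log2 unit between segment means. These coefficients describe arrays that share segments, pools and scaling. Car1 went with Cyp2d10 (Pearson r = 0.992), Ccn3 (0.991) and Hoxa11os (0.986), all of which were near background outside the colon. The Ccn3 means, for example, were 11.7, 10.9, 13.5 and 846 from duodenum to colon. Car2 went with Tnni1 (0.969), Chgb (0.966) and Wfdc2 (0.959), which shared its high ends. Wfdc2 averaged 149, 7.57, 18.2 and 491. Chgb, a granin of enteroendocrine cells, averaged 984, 534, 370 and 1504. Of 9 enteroendocrine markers 3 were higher and 1 lower in the colon than in the ileum, beside 3.28% of all probe sets called.

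For Car3 the closest were Sparcl1 (0.963), Ccn2 (0.956) and Slk (0.951), and for Car8 they were 1110059E24Rik (0.975), Ermp1 (0.974) and Arglu1 (0.973). Car4 had looser matches, Tnxb (0.935), Abhd8 (0.906) and Pdlim7 (0.900). Pdlim7 averaged 16.3, 75.3, 70.0 and 170, with the same steps up at the jejunum and the colon. Car14 varied by 0.80 log2 units between segment means and was too flat to be matched.

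Of 10 other carbonic anhydrases on the arrays, 1 was called by the F test, a share near the 8.82% of all probe sets. It was Car12, a membrane-spanning enzyme. Its level stepped up at the ileum, with pools of 80.0 to 115.6 in the duodenum, 72.9 to 99.5 in the jejunum, 225.5 to 292.6 in the ileum and 178.0 to 346.6 in the colon. Ileum minus jejunum was 1.43 for Car12 (adjusted p = 0.00759) and colon minus duodenum 1.36 (adjusted p = 0.00387). Ileum and colon overlapped (0.12, adjusted p = 0.941). Car5a, Car5b, Car6, Car7, Car9, Car10, Car11, Car13 and Car15 had no call in any comparison.

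Of 22 carriers and pumps that use bicarbonate, chloride or protons, 8 were called by the F test, beside 8.82% of all probe sets. Between duodenum and jejunum limma called 0 of the 22, beside 0.924% of all probe sets. Between ileum and colon 3 were higher and 2 lower (background 3.28%), and between jejunum and colon 3 were higher and 4 lower (9.19%). Between jejunum and ileum 2 were lower, Slc26a6 and Slc4a5, and 0 higher (2.78%).

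The apical chloride-bicarbonate exchanger Slc26a6 was the carrier with the largest difference. It averaged 10765 ± 2262, 9043 ± 1395, 4076 ± 202 and 79.9 ± 23.5 from duodenum to colon, and fell by 5.44 on the log2 scale from ileum to colon (adjusted p = 8.80e-11), where Car1, Car2 and Car4 rose. The apical sodium-proton exchanger Slc9a3 averaged 1773 ± 973, 1316 ± 414, 560 ± 288 and 3622 ± 915, lowest in the ileum and highest in the colon (colon minus ileum 2.74, adjusted p = 0.000229). Its scaffold Slc9a3r1 went the other way at that step (-1.18, adjusted p = 0.00189). The sulfate carrier Slc26a2 and the basolateral anion exchanger Slc4a2 were higher in the colon than in the ileum by 1.65 and 0.97 (adjusted p = 0.0152 and 0.00768).

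The bicarbonate cotransporter Slc4a4 was lower in the colon than in the jejunum (130 ± 6.18 against 277 ± 60.6, adjusted p = 0.00848), and the chloride channel Cftr was higher (373 ± 46.5 against 180 ± 77.1, adjusted p = 0.0160). The probe set of Slc26a3, the main chloride-bicarbonate exchanger of the colon, was dim on array set C, with segment means of 45.8, 50.5, 27.2 and 9.73 and no call. It gives no measure of that exchanger beside the colonic anhydrases.

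**Figure D4:**
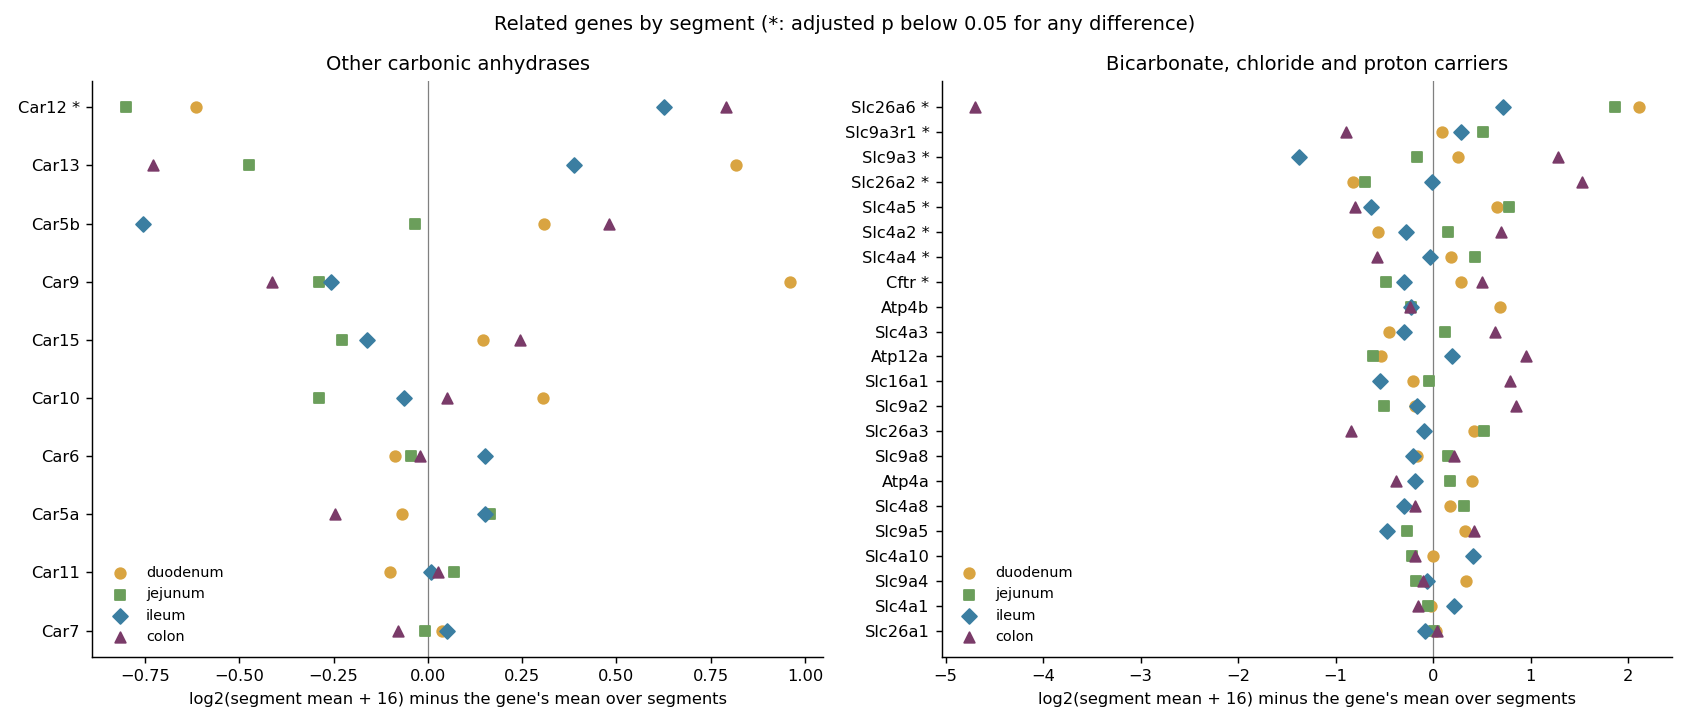
Segment means of 10 other carbonic anhydrases (left) and 22 carriers and pumps (right), as log2(segment mean + 16) minus the gene's mean over the 4 segments (asterisk: adjusted p below 0.05 for any difference). Car12 alone is marked on the left, with ileum and colon above duodenum and jejunum, and on the right Slc26a6 has the lowest colon value.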

How the data were processed

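The 12 pools (4 segments, 3 pools each) were each hybridised to the array sets A, B and C, whose 12422, 12411 and 11868 probe sets were tested once 66 controls per set had been left out. The authors deposited linear intensity, scaled to a common mean as the values themselves show; the software is not given in the sources used here. No detection calls were used. From them log2(intensity + 16) was computed, and a separate limma model (version 3.58.1, R 4.3.3) was fitted to the 12 arrays of each set, with segment means and an intensity trend. Fold values are ratios of mean deposited intensities. P-values of the 3 sets were adjusted together (Benjamini-Hochberg), 2-sided. The residual SD had a median of 0.36, 0.50 and 0.55 on A, B and C, so differences on B and C are less precise. The procedure was tested on simulated data.

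The members and gene lists were chosen with earlier results of these data known. Probe sets were named from the annotation supplied with the arrays, and a probe set can bind transcripts of relatives. A gene is represented by its brightest probe set on A, else B, else C. Named were all member probe sets, up to 6 genes per list with the smallest adjusted p of the F test, genes that define a list, and the 3 genes per member with the highest Pearson r. Alternatives were the offset, scaling, variance trend, a filter at the 25th percentile, the arrays in the fit, the 18S class, the replicate number and leaving out each pool.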

Additional observations from a re-analysis of the deposited data

How the results depend on the processing

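Over the 60 differences and the alternatives tried, no called difference changed direction. Of these repeats 1267 kept their side of the threshold, 46 lost a call and 1 gained it. For ileum minus jejunum the count of called probe sets, 1 with all pools, was 0 with an offset of 64, without the intensity trend, with only the arrays of the segments compared, and among the high-18S pools, and 0 to 1 when 1 pool was left out. Jejunum minus duodenum went from 2 to 1 among the high-18S pools, and ileum minus duodenum from 2 to 1 with the 18S class as a term. For colon minus ileum 4 of 6 calls were made among the high-18S pools. The other counts stayed within 1.5 times. By limma an offset ended the call of Car2 for ileum minus jejunum (adjusted p = 0.131 with an offset of 64) and that of the Car4 probe set 161818_f_at for colon minus jejunum (adjusted p = 0.0538 with an offset of 1). Over all probe sets, calls for ileum minus jejunum numbered 67 among the high-18S pools against 1020, and median centring left 1164 higher and 1819 lower for colon minus jejunum against 2131 and 1240.

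With the replicate number as a block (replicate block), ileum minus jejunum had 0 called probe sets against 1, and no other count of called members changed by over 1.5 times. Not every pair of pools of equal number deviated together. On set A their correlation was -0.36 to 0.36, and 5 of 18 pairs exceeded 0.1, with 5 of 18 on B and 4 of 18 on C, against 9, 3 and 8 of 36 pairs of unlike number. For ileum with colon all 9 correlations of equal numbers were positive, at 0.037 to 0.185. Since not every pair exceeded 0.1, the numbers were not used as pairs. Deviations were taken from the mean of the 3 pools of a segment, which makes these correlations balance around 0. The rule is therefore strict and could miss a real pairing.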
